A study of Mus musculus with 4 samples.

Results

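The 9 chemokine receptor genes described here are Cxcr5, Cxcr4, Cxcr3, Cxcr6, Ccr2, Ccr4, Ccr6, Ccr7 and Cx3cr1. They were chosen by symbol and matched through their Ensembl identifiers to raw counts, 9 of the 39179 gene identifiers counted in the series. RNA was sequenced from CD4 T cells of OT-II mice, whose transgenic T cell receptor recognises ovalbumin. The cells were transferred into C57BL/6 hosts, which keep their own lymphocytes, and the hosts were immunised under the skin with nitrophenol-coupled ovalbumin. On day 8, Thy-1.1+ transferred cells were sorted from pooled inguinal lymph nodes into CD44hi CXCR5+ PD-1+ cells, called T follicular helper (Tfh), and CD44hi CXCR5- PD-1- cells, called non-Tfh. Each group has 2 libraries, one named T32 and one T53. Nothing in the labels ties these numbers to separate animals or pools, so the p-values reflect the spread among these samples alone, which may be technical.

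Chemokine receptors are seven-helix membrane proteins that couple mainly to inhibitory G proteins and steer cells along gradients of small secreted proteins, the chemokines. In a lymph node, CCR7 holds T cells in the T zone, where stromal cells make CCL19 and CCL21, and CXCR5 draws cells towards CXCL13 in the B cell follicle. CXCR4 binds CXCL12, which marks the dark zone of the germinal centre. CXCR3, CXCR6, CCR2, CCR4, CCR6 and CX3CR1 are known for guiding effector and memory T cells and myeloid cells into inflamed or barrier tissue.

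Summed gene counts lay between 5725358 (Tfh T53) and 13360563 (non-Tfh T32). Levels are given as counts scaled to TMM-adjusted library size (CPM), in which 1 count was worth 0.0745 to 0.175. All 10 listed CD4 T cell markers, Cd4 and Cd3e among them, had counts in every library, with summed levels of 10509 and 9407 CPM in Tfh cells, against 9350 and 8675 CPM in non-Tfh cells. Among cells that carry some of the same receptors, the 10 monocyte and macrophage markers summed to 6.45 and 6.46 CPM in Tfh cells, against 5.81 and 9.55 CPM in non-Tfh cells, and Cd14 and Clec4d were at 0 throughout. The 8 dendritic cell markers summed to 2.26 and 4.19 CPM in Tfh cells, against 5.36 and 9.22 CPM in non-Tfh cells, with Clec9a and Siglech at 0 throughout. The 9 B cell markers summed to 338 and 325 CPM in Tfh cells, against 170 and 144 CPM in non-Tfh cells. Nearly all of that was Cd22 and the IgM constant gene Ighm. Of the 6 NK cell markers, Ncr1 and Klra8 were at 0 throughout, and the list summed to 50.4 and 58.5 CPM in Tfh cells, against 25.8 and 34.8 CPM in non-Tfh cells. Most of the Tfh sum was Klrb1c, at 44.6 and 57.3 CPM in Tfh cells, against 19.7 and 12.4 CPM in non-Tfh cells. Gzma and Eomes had lower means in Tfh cells, and the groups overlapped for Gzma. Granulocyte markers summed to at most 0.112 CPM, gamma delta T cell markers to at most 0.349 CPM, and CD8 T cell markers to 3.60 to 6.20 CPM. Stromal and endothelial markers summed to 212 to 237 CPM, nearly all from Pecam1, which T cells also express. Of the markers of other cell types, edgeR called Cd22, Pax5 and Klrb1c higher and Eomes and Itgam lower in Tfh cells.

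Among the 9 receptors, Cxcr5 and Cxcr4 were higher in Tfh cells, Ccr2, Ccr7, Cxcr6, Ccr6 and Ccr4 were lower, Cxcr3 did not pass the test and Cx3cr1 had too few counts to be tested. The tests came from edgeR's quasi-likelihood fit to all genes with enough counts, with Benjamini-Hochberg adjustment over the 11702 genes tested and a threshold of 0.05. Of all genes tested, 4.47% were called higher and 4.02% lower in Tfh cells, 8.49% in all. Of the 8 receptors tested, 2 were called higher and 5 lower. Cxcr5 is no finding among them, since its product was a sorting marker, and 6 of the 7 others were called. The receptors were chosen with earlier results of these data known, so their share is not that of an independent list. The CPM ranges of the groups did not overlap for any of the 9 genes, but this also held for 52.2% of all genes tested. With limma-voom, 3 receptors were called lower rather than 5, as Ccr6 and Ccr4 lost their calls. Both also lost their calls when Tfh T32 or Tfh T53 was left out. In bulk RNA, fewer cells with a transcript and less of it per cell cannot be told apart.

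**Figure D1:**
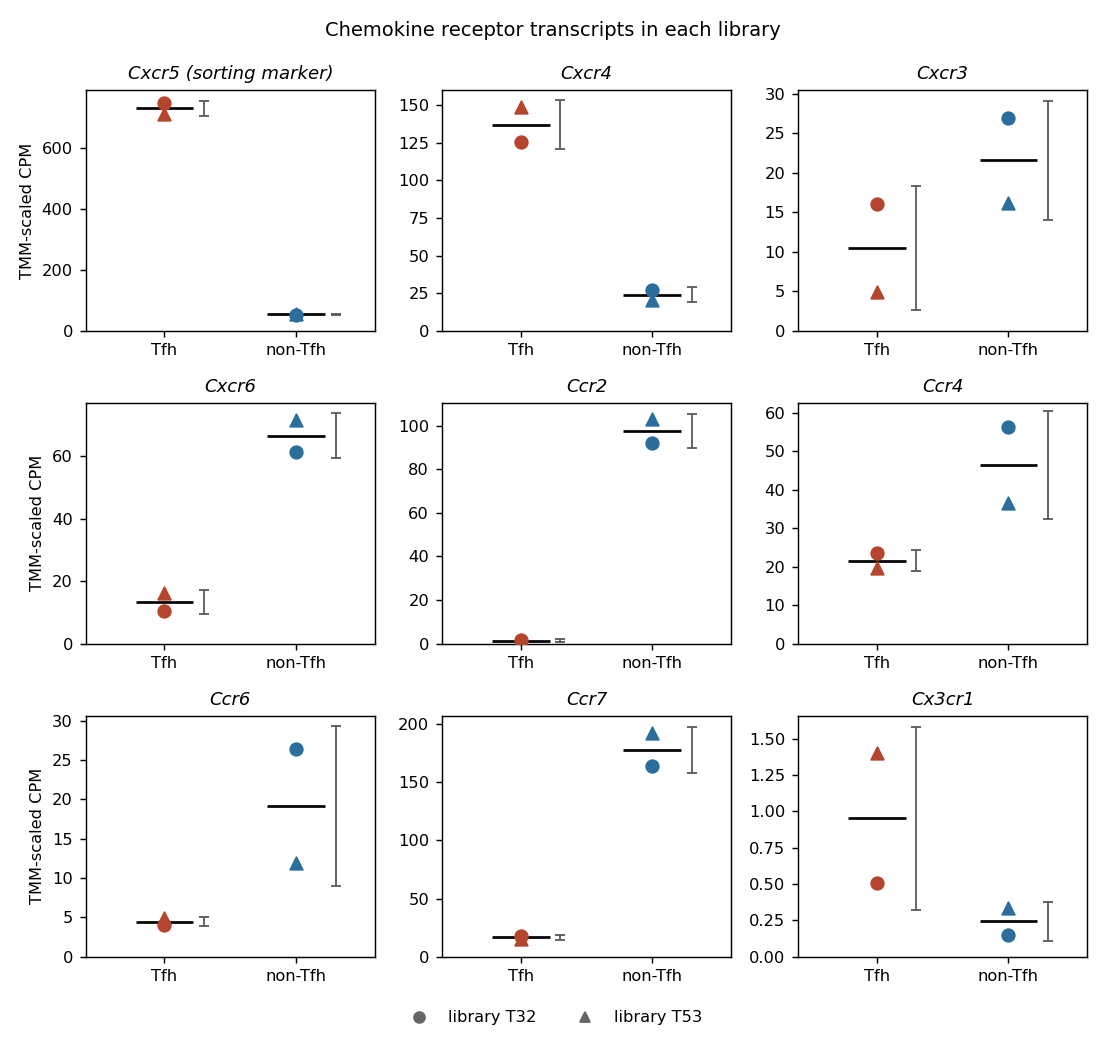
TMM-scaled CPM of each receptor in each library, Tfh left and non-Tfh right, on linear axes from 0. Circles are T32 and triangles T53, horizontal lines are group means and the bars beside them span 1 SD either way (n = 2 per group). Cxcr4 stood at 126 and 148 CPM in Tfh cells, against 27.4 and 20.6 CPM in non-Tfh cells, and Ccr7 showed the opposite order.

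Promoter sequences are shown for 3 receptors because they stand at different ends of the comparison: Cxcr4, which rose, Ccr2, which had the largest decrease among the 9 genes, and Ccr6, which fell and holds the most motif matches. The set of RefSeq start sites at hand (GRCm38.p6) covered 7 of the 9 genes and had no entry for Cxcr5 or Ccr7. The 250 bases before each start were searched. The motifs were CAGCTG (an E-box), CACCC (bound by KLF factors), AGGTGTGA (T-box), AGGTCA (a nuclear receptor half-site), GTAAACA (FOXO) and TTCNNNGAA (STAT and BCL6). Both strands were read, and capitals mark the matches. The lines run 5′ to 3′ on the strand of the gene, towards the start site.
Cxcr4, chr1:128592300-128592549, minus strand: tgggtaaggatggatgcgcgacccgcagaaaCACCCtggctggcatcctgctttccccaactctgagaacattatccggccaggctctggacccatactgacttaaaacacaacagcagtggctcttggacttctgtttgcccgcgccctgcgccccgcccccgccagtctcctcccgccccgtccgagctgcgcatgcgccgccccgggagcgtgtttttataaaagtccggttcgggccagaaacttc
Ccr2, chr9:124101933-124102182, plus strand: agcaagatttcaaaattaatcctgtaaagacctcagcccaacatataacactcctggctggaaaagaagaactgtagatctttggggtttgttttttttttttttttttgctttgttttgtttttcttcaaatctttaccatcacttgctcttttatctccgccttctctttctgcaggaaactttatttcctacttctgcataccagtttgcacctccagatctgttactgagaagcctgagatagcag
Ccr6, first of its starts, chr17:8235793-8236042, plus strand: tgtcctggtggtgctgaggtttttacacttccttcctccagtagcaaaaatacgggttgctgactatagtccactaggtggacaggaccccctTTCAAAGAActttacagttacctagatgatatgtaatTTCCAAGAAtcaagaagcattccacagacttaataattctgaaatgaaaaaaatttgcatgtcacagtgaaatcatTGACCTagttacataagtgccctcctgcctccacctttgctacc

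The Cxcr4 window was rich in G and C (61.2%) with 19 CpG pairs, and held 1 CACCC, 219 to 215 bases before the start. CACCC on either strand occurred in 52.0% of all 32851 promoter windows of this length. The Ccr2 window had 37.2% G and C, 1 CpG pair and no match. The medians over all windows were 52.4% and 6 CpG pairs. The Ccr6 window held TTCNNNGAA 157 to 149 and 120 to 112 bases before the start, a motif found in 7.02% of all windows. It also held AGGTCA on the opposite strand, 44 to 39 bases before the start, which 14.0% of all windows contain. The windows of Cxcr3 and Cxcr6 had no match, that of Ccr4 had 1 CACCC, and that of Cx3cr1 had 1 CACCC and 1 CAGCTG, which 13.0% of all windows hold. None of the 8 windows, of which Ccr6 has 2, held AGGTGTGA or GTAAACA, found in 1.12% and 3.17% of all windows. A match is a run of letters and not a measured binding site. The RefSeq starts differ from the GENCODE gene positions used here. By GENCODE, Ccr2 begins at 124101950, so most of its window lies inside the gene. The windows of Ccr4 and Cx3cr1 and the other Ccr6 window lie wholly inside their genes, and those of Cxcr3 and Cxcr6 partly.

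The receptors that place cells inside the lymph node changed in opposite directions. Cxcr5, the follicle receptor (ENSMUSG00000047880, GRCm38 chromosome 9, 44511787 to 44561877, minus strand), had 747 and 712 CPM in Tfh cells, against 52.6 and 56.0 CPM in non-Tfh cells. The groups lie far apart, by 13.4-fold, and since both gates use its product this is a check of the labels. Its exons share 110 bases, 3.30% of their length, with Bcl9l on the other strand, and no source used here gives the strand used in counting.

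Cxcr4, the CXCL12 receptor (ENSMUSG00000045382, chromosome 1, 128588199 to 128592293, minus strand), had 1499 and 850 counts in Tfh cells, against 368 and 183 in non-Tfh cells. In scaled units this was 126 and 148 CPM in Tfh cells, against 27.4 and 20.6 CPM in non-Tfh cells. Both Tfh libraries lie above both non-Tfh libraries, in T32 by 2.20 and in T53 by 2.85 on the log2 scale. Tfh cells averaged 137 ± 16.2 CPM against 24.0 ± 4.84 CPM for non-Tfh cells (SD, n = 2 each), a 5.67-fold difference (log2 fold change 2.50 ± 0.178 SE, edgeR adjusted p = 0.00119). With each library left out in turn, the log2 fold change stayed between 2.32 and 2.73 and past the threshold.

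Ccr7, the T zone receptor (ENSMUSG00000037944, chromosome 11, 99144196 to 99155077, minus strand), had 213 and 87 counts in Tfh cells, against 2199 and 1711 in non-Tfh cells. Its levels were 17.8 and 15.2 CPM in Tfh cells, against 164 and 192 CPM in non-Tfh cells. The libraries of each group lie close together and the groups do not overlap. Tfh cells averaged 16.5 ± 1.87 CPM against 178 ± 20.2 CPM for non-Tfh cells (SD, n = 2 each), so Ccr7 fell 10.7-fold (log2 fold change -3.41 ± 0.155, edgeR adjusted p = 0.000271). The range over left-out libraries was -3.54 to -3.29.

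Per kilobase of exon, Cxcr5 and Ccr7 changed places. The ratio of Cxcr5 to Ccr7 was 24.9 and 27.8 in Tfh cells, against 0.191 and 0.173 in non-Tfh cells, and the gate on CXCR5 enters it. The ratio of Cxcr4 to Ccr7, which no gate names, was 7.70 and 10.7 in Tfh cells, against 0.183 and 0.117 in non-Tfh cells. In every non-Tfh library Ccr7 exceeded both other receptors, and in every Tfh library it lay below both.

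Of the receptors known for inflamed or barrier tissue, Ccr2, Cxcr6, Ccr6 and Ccr4 were called lower in Tfh cells, Ccr2 by the largest fold, while Cxcr3 did not pass the test. Ccr2, the receptor for CCL2 and related monocyte attractants (ENSMUSG00000049103, chromosome 9, 124101950 to 124113557, plus strand), had 21 and 6 counts in Tfh cells, against 1237 and 916 in non-Tfh cells. The levels were 1.76 and 1.05 CPM in Tfh cells, against 92.1 and 103 CPM in non-Tfh cells. Both Tfh libraries were far below both non-Tfh libraries, and Tfh T53 was close to the level of a few counts. The log2 fold change was -6.00 ± 0.22 (64.2-fold, edgeR adjusted p = 0.000183), and it ranged from -6.52 to -5.77 with a library left out. Monocytes also carry CCR2. Of the 10 monocyte and macrophage markers, Cd14 and Clec4d were at 0 in every library, and Itgam moved with Ccr2. Itgam had 2 and 3 counts in Tfh cells, against 29 and 18 in non-Tfh cells (log2 fold change -2.78 ± 0.605, edgeR adjusted p = 0.042). Lyz2, Cd68 and Fcgr3 were tested and not called, and the other 4 were under the filter, with at most 5 counts in any library. The part of such cells in the Ccr2 result was not tested.

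Cxcr6, the receptor for the membrane-bound chemokine CXCL16 (ENSMUSG00000048521, chromosome 9, 123806475 to 123811760, plus strand), had 126 and 92 counts in Tfh cells, against 825 and 638 in non-Tfh cells. This was 10.6 and 16.1 CPM in Tfh cells, against 61.5 and 71.7 CPM in non-Tfh cells. The lowest non-Tfh library had several times the level of the highest Tfh library. Cxcr6 fell 5.12-fold (log2 fold change -2.36 ± 0.22, edgeR adjusted p = 0.00281), with a range of -2.64 to -2.04 over left-out libraries. It lies inside the span of Fyco1 on the other strand, and their exons share 0 bases.

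Ccr6, the receptor for CCL20, is known from Th17 cells (ENSMUSG00000040899, chromosome 17, 8236043 to 8257141, plus strand). It had 48 and 28 counts in Tfh cells, against 354 and 106 in non-Tfh cells, or 4.02 and 4.89 CPM in Tfh cells, against 26.4 and 11.9 CPM in non-Tfh cells. The Tfh libraries were alike, while the non-Tfh libraries differed by a larger ratio than for any other receptor called lower. Ccr6 fell 4.40-fold (log2 fold change -2.14 ± 0.422, edgeR adjusted p = 0.0351). Leaving out either Tfh library ended the call (edgeR adjusted p = 0.217 for T32 and 0.167 for T53), as did limma-voom (0.0745). Without non-Tfh T32, the library where Ccr6 was highest, the log2 fold change was -1.43.

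Ccr4, the receptor for CCL17 and CCL22, is known from Th2, regulatory and skin-homing T cells (ENSMUSG00000047898, chromosome 9, 114490316 to 114504916, minus strand). Its levels were 23.5 and 19.6 CPM in Tfh cells, against 56.3 and 36.5 CPM in non-Tfh cells. The groups do not overlap, but the gap between them is narrower than that between the non-Tfh libraries. Ccr4 fell 2.15-fold (log2 fold change -1.10 ± 0.237, edgeR adjusted p = 0.0432). Leaving out Tfh T32 ended the call (adjusted p = 0.0892), as did leaving out Tfh T53 (0.175), leaving out non-Tfh T32 (0.0658) and limma-voom (0.0632).

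Cxcr3, the receptor for the interferon-induced chemokines CXCL9 and CXCL10, is known from Th1 cells (ENSMUSG00000050232, chromosome X, 101731535 to 101734269, minus strand). It had 191 and 28 counts in Tfh cells, against 361 and 144 in non-Tfh cells, or 16.0 and 4.89 CPM in Tfh cells, against 26.9 and 16.2 CPM in non-Tfh cells. Tfh T32 reached almost the level of non-Tfh T53, and T32 exceeded T53 in both groups. The log2 fold change of -0.98 ± 0.551 did not pass the test (edgeR adjusted p = 0.402). Without Tfh T32 it was -2.14 and passed (adjusted p = 0.0359), and without Tfh T53 it was -0.42 (0.729).

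Cx3cr1, the receptor for fractalkine, is known from monocytes and cytotoxic T cells (ENSMUSG00000052336, chromosome 9, 119901616 to 120069879, minus strand). It had 6 and 8 counts in Tfh cells, against 2 and 3 counts in non-Tfh cells, under the filter on low counts. It was the only member besides Cxcr5 and Cxcr4 with more counts in Tfh cells, despite their lower totals. The ratio of pooled counts, scaled to library size, was 3.54 (exact 95% interval 1.20 to 12.6), which covers counting error only and is no test between the groups.

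**Figure D2:**
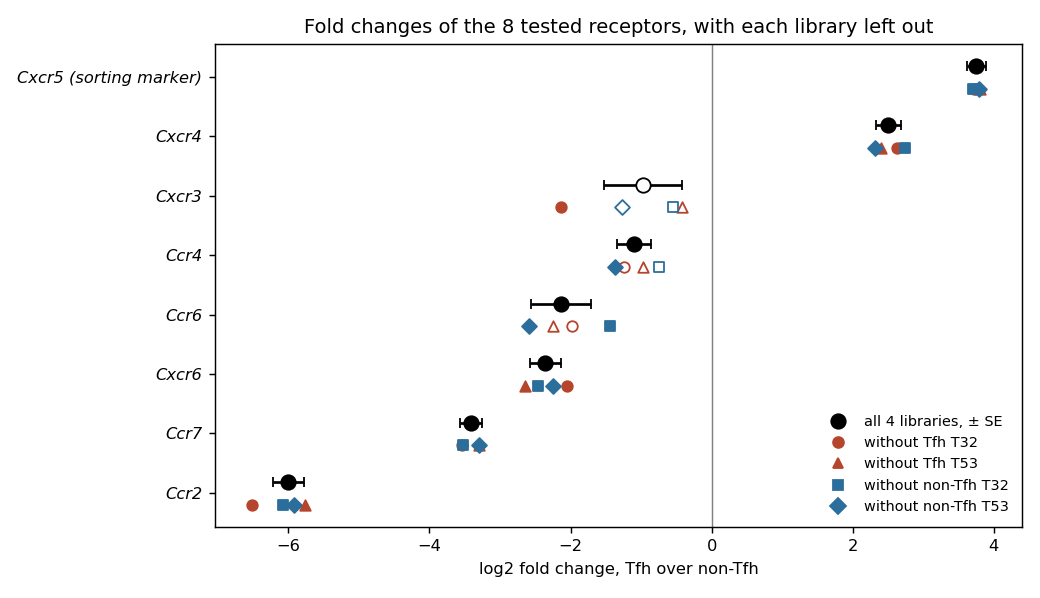
Log2 fold changes, Tfh over non-Tfh, of the 8 tested receptors: black circles with all 4 libraries and SE, coloured symbols with 1 library left out. Filled symbols have an edgeR adjusted p under 0.05 and open ones do not. Cxcr4, Cxcr6, Ccr7 and Ccr2 stayed filled throughout, while Ccr6 and Ccr4 opened and Cxcr3 ran from -2.14 to -0.42.

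Per length, the receptors formed a different order in each group. In Tfh cells, Cxcr5 led at 219 ± 7.53 CPM per kilobase of exon, followed by Cxcr4 at 75.8 ± 8.95 (SD, n = 2). Next came Ccr7, Ccr4, Cxcr6 and Cxcr3, with means of 8.35, 6.97, 6.89 and 6.04 CPM per kilobase. The ranges of Cxcr6 and Cxcr3 overlapped each other and those of Ccr7 and Ccr4: Cxcr3 at 9.24 exceeded Ccr7 at 9.02 in T32, and Cxcr6 at 8.32 exceeded Ccr7 at 7.68 in T53. Ccr6 came next at 1.92, then Cx3cr1 at 0.211 and Ccr2 at 0.208 CPM per kilobase, which overlapped. In non-Tfh cells Ccr7 led at 90.0 ± 10.2, above Cxcr6 at 34.5 ± 3.76 CPM per kilobase. Cxcr5 at 16.3, Ccr4 at 15.0, Ccr2 at 14.4, Cxcr4 at 13.3, Cxcr3 at 12.4 and Ccr6 at 8.25 CPM per kilobase each overlapped the next in range. Cx3cr1 stood below them all at 0.0540. With exon lengths from the basic transcript set, an alternative chosen after seeing the data, the order of the means was the same in both groups.

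Among protein-coding genes with counts, Cxcr4 exceeded 97.5% in Tfh cells, against 77.6% in non-Tfh cells. Ccr7 exceeded 64.3% in Tfh cells, against 98.2% in non-Tfh cells. Ccr2 exceeded 17.7% in Tfh cells, against 79.6% in non-Tfh cells. Cxcr6 exceeded 59.0% in Tfh cells, against 93.1% in non-Tfh cells.

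The summed level of the 9 receptors was 327 and 323 CPM per kilobase in Tfh cells, against 204.3 and 204.2 in non-Tfh cells. Without Cxcr5 the sum was 103 and 109.8 in Tfh cells, against 189 and 187 in non-Tfh cells. Cxcr4 made up 67.5% and 74.8% of this sum without Cxcr5 in Tfh cells, against 8.04% and 6.07% in non-Tfh cells. Ccr7 made up 8.77% and 6.99% in Tfh cells, against 43.9% and 51.9% in non-Tfh cells. Cxcr6 made up 5.31% and 7.58% in Tfh cells, against 16.9% and 19.8% in non-Tfh cells. Shares depend on one another, so a rise of one lowers the rest.

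**Figure D3:**
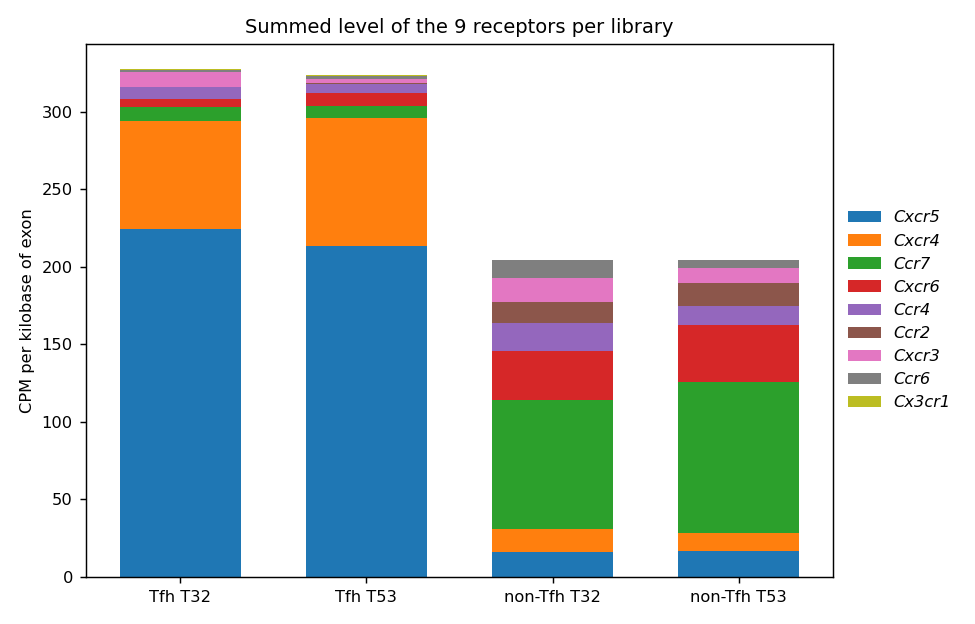
Level of the 9 receptors in CPM per kilobase of exon, stacked, in each library, Tfh left and non-Tfh right. Cxcr5 and Cxcr4 fill most of both Tfh bars, which reach 327 and 323, and Ccr7 and Cxcr6 lead both non-Tfh bars, which reach 204.3 and 204.2.

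The other chemokine receptor genes were mostly silent or rare. Of the 15 others listed, 3 had no counts, 6 were tested and none was called by edgeR, with 3 at an unadjusted p under 0.05. DESeq2 called 1 of the 6 and limma-voom none, and without the filter on low counts edgeR called Ccr1 and Ccr8, among others, lower. The median log2 fold change was -1.58 for these 6, -1.62 for the 8 members tested, -2.14 for the 7 without Cxcr5 and -0.0054 for all genes tested. Ccr10, a receptor for skin and mucosal chemokines, had 13.1 and 29.5 CPM in Tfh cells, against 2.16 and 14.3 CPM in non-Tfh cells, so the groups overlap (log2 fold change 1.40 ± 0.909, edgeR adjusted p = 0.474). Its log2 fold change was 0.54 without non-Tfh T32 and 3.26 without non-Tfh T53, and not called in either case. Ccr8, a receptor known from regulatory and Th2 cells, had 0.503 and 1.57 CPM in Tfh cells, against 2.09 and 5.06 CPM in non-Tfh cells (-1.91 ± 0.7, edgeR adjusted p = 0.178). With a library left out, its log2 fold change lay between -2.76 (without Tfh T53) and -1.14 (without Tfh T32), and it was not called.

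Of the 24 receptor genes, 15 lie on chromosome 9, 5 of the 9 members among them, and 8 stand in 1 cluster that begins at Ccr9. The cluster was looked at with the values of Ccr2 and Cxcr6 known. Counts were found for 7 of its 8 receptors, and the counts summed over the group, per scaled library, were lower in Tfh cells for all 7. These 7 include Cxcr6 and Ccr2, and Ccr9 had 0 counts in Tfh cells against 3 in non-Tfh cells. The share of all genes lower by this measure was not computed, and the median log2 fold change of all genes tested was -0.0054. Xcr1 was higher in Tfh T32 than in non-Tfh T32, with 6 counts against 5, and its groups overlap. Besides the members Cxcr6 and Ccr2, edgeR called none of the cluster's receptors. Ccr1, a receptor for CCL3 and CCL5, had 1 and 1 counts in Tfh cells, against 14 and 9 in non-Tfh cells, a pooled ratio of 9.10 in favour of non-Tfh cells (exact 95% counting interval 2.25 to 79.6, edgeR adjusted p = 0.0526). Ccr3 had no counts in Tfh cells, against 7 in non-Tfh cells. With 3 counts per group as the floor and the 7 counts taken as exact, it was at least 1.85-fold lower in Tfh cells. The cluster's other tested genes were Fyco1, Lztfl1 and the pseudogene Gm10052, with log2 fold changes of -0.42, -0.64 and -0.41 (edgeR adjusted p = 0.18, 0.205 and 0.747).

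A small share of the read-length windows of Ccr2, 1.16%, also occurs in another receptor transcript, and counts from those windows are uncertain.

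**Figure D4:**
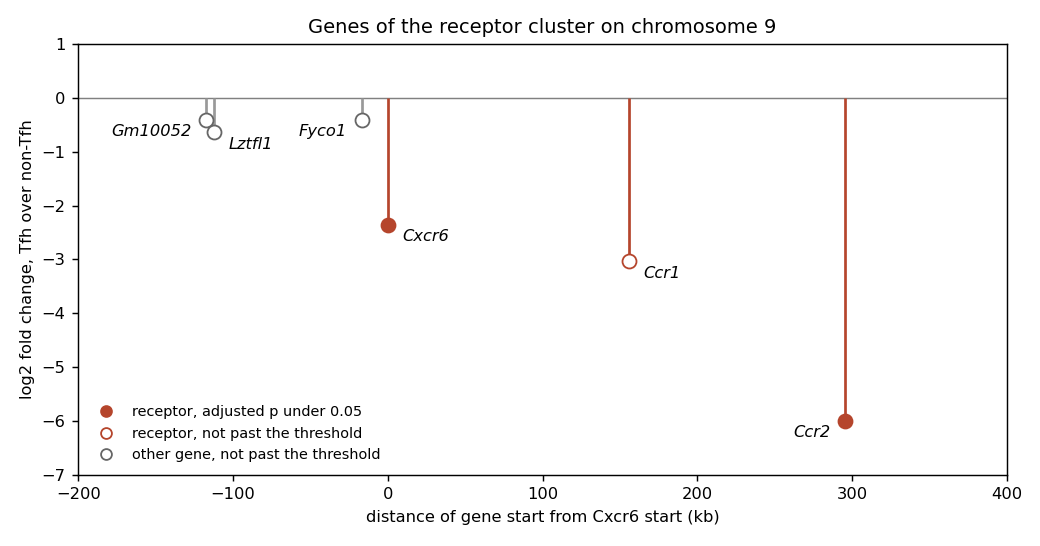
Log2 fold change, Tfh over non-Tfh, of 6 tested genes in the chromosome 9 cluster, against the distance of each gene's start from that of Cxcr6 in kb. Red marks receptors, grey other genes, and filled points have an edgeR adjusted p under 0.05: Ccr2 at -6.00 and Cxcr6 at -2.36, with Ccr1 near -3.0 and open, and the other genes between -0.64 and -0.41.

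The ligands of the 9 receptors were nearly silent in both groups. Of 16 ligand genes, 8 had no counts in any library, Cxcl12 and Ccl20 among them, and Cxcl10 alone was tested. Cxcl10, a ligand of CXCR3, had 4.78 and 2.97 CPM in Tfh cells, against 2.61 and 1.57 CPM in non-Tfh cells, and did not pass (log2 fold change 0.89 ± 0.421, edgeR adjusted p = 0.285). Its unadjusted p was 0.0747, and neither DESeq2 nor limma-voom called it.

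Of 29 listed genes that carry or end the receptor signal, 28 were tested, 2 were called higher, 5 lower and 21 not called. Among all genes tested, 4.47% were called higher and 4.02% lower. The median log2 fold change was -0.031 for the list and -0.0054 for all genes tested. Gnai2, the main inhibitory G protein alpha chain of lymphocytes, had 321 and 306 CPM in Tfh cells, against 306 and 269 CPM in non-Tfh cells (0.13 ± 0.126, edgeR adjusted p = 0.639). The largest decreases were of Rasgrp2, an activator of the integrin switch Rap1, and of Pik3r5, a regulatory subunit of PI3K gamma. Rasgrp2 had 42.4 and 20.8 CPM in Tfh cells, against 255 and 232 CPM in non-Tfh cells (-2.91 ± 0.332, edgeR adjusted p = 0.0106). Leaving out non-Tfh T32 ended the call (edgeR adjusted p = 0.121), as did leaving out non-Tfh T53 (0.15). Leaving out Tfh T32 gave a log2 fold change of -3.54. Pik3r5 had 10.4 and 10.5 CPM in Tfh cells, against 67.6 and 75.3 CPM in non-Tfh cells (-2.77 ± 0.144, edgeR adjusted p = 0.000387).

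Tpst2, an enzyme that adds sulphate to tyrosines such as those of receptor tails, fell 2.08-fold to 42.2 and 40.0 CPM in Tfh cells, against 88.4 and 82.7 CPM in non-Tfh cells (edgeR adjusted p = 0.00515). Gna13, a G protein chain that holds germinal centre cells in place, rose 2.05-fold (edgeR adjusted p = 0.0152). The other called genes, named after their values were seen, were the G protein gamma chain Gng2, higher with a log2 fold change of 0.80, and the Rac activator Dock2 and Arhgef1, which acts below G alpha 13, lower with -0.67 and -0.59.

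Of 14 transcription regulators known to act on receptor genes, 2 were called higher and 6 lower, with a median log2 fold change of -0.58. Over all genes tested the shares were 4.47% and 4.02% and the median -0.0054. This list, too, was written with earlier results of these data known. Ascl2, which switches on Cxcr5, had 87 and 123 counts in Tfh cells and none in non-Tfh cells. With 3 counts per group as the floor and the Tfh counts taken as exact, it was at least 88.5-fold higher in Tfh cells. It was called higher (edgeR adjusted p = 0.0295), and the list's median is the same with Ascl2 at that bound. Leaving out non-Tfh T32 ended the call (edgeR adjusted p = 0.157), as did leaving out non-Tfh T53 (0.14). Bcl6, the Tfh regulator, had 249 and 352 CPM in Tfh cells, against 34.9 and 45.3 CPM in non-Tfh cells (2.91 ± 0.223, edgeR adjusted p = 0.00187). Prdm1, which encodes Blimp-1, fell 7.17-fold to 1.26 and 0.349 CPM in Tfh cells, against 6.78 and 6.41 CPM in non-Tfh cells (edgeR adjusted p = 0.0188). Without Tfh T32, its log2 fold change of -2.84 became -4.18.

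Tbx21, the Th1 regulator, named after its values were seen, had 2.35 and 0.699 CPM in Tfh cells, against 7.67 and 13.9 CPM in non-Tfh cells. It was called lower in Tfh cells (log2 fold change -2.66 ± 0.536, edgeR adjusted p = 0.0366). Among Tfh libraries T32 was the higher for both Tbx21 and Cxcr3. Among non-Tfh libraries T53 was the higher for Tbx21 and T32 for Cxcr3. A link between the 2 genes was not tested.

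**Figure D5:**
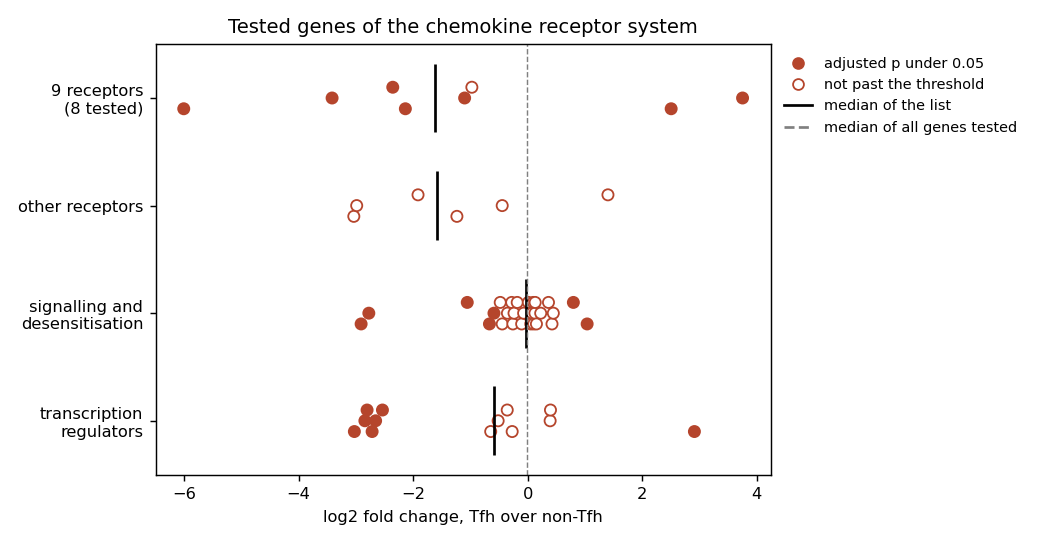
Log2 fold change, Tfh over non-Tfh, of the tested genes of 4 lists, 1 point per gene, filled where the edgeR adjusted p is under 0.05, with black lines at list medians and a dashed line at the median of all genes tested. Ascl2, with no counts in non-Tfh cells, is left off the plot. The receptor rows spread from -6.00 to 3.75 and have medians near -1.6, while the signalling row centres on -0.031.

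The genes with the most similar profiles were found among 9017 others, by the distance over the 4 libraries between log2 CPM values centred on each gene's mean. With 4 libraries in 2 groups, likeness is mainly a like difference between the groups. Cxcr5 was nearest to Hap1 (distance 0.104) and then Il21, and Cxcr4 to the ATP-gated channel P2rx7 (0.252) and then Atp9a. Ccr7 was nearest to the small GTPase Arl4c (0.301) and then Ppp3ca, Cxcr6 to Sgms1 (0.369) and then Cmah, and Ccr4 to Lsp1 (0.161) and then Plp2. Ccr6 was nearest to Bcat1 (0.292) and then Fut7. Ccr2 was nearest to Nhsl2 (0.522) and then Acsbg1, and since Nhsl2 had no Tfh counts that distance depends on the prior count. Cxcr3 was nearest to the interferon-induced gene Ifit1 (0.0984), which had 88.7 and 28.3 CPM in Tfh cells, against 161 and 89.4 CPM in non-Tfh cells, and then to Oasl2. Both share with Cxcr3 the higher level in T32 within each group, and neither passed the test (edgeR adjusted p = 0.392 and 0.489).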

How the data were processed

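Stranded total RNA libraries of 4 samples, 2 Tfh and 2 non-Tfh, were sequenced in read pairs of 75 bases, per the labels' protocols. The authors deposited raw counts per Ensembl gene. Per the submitters' processing notes the tools were TopHat2, Bowtie2 and HTSeq and the build GRCm38 (mm10), with versions, annotation release and strand setting not given in the sources used here. Symbols, positions and exon lengths came from GENCODE M21 (GRCm38), which matched 37693 of 39179 identifiers. The 1486 without a symbol took 0.209 to 0.228% of each library and were kept in its total.

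Groups came from the labels. The counts were tested with edgeR 4.0.16 under R 4.3.3. Low genes were removed by filterByExpr, given the group, leaving 11702. Scaling was TMM, and the robust quasi-likelihood fits gave two-sided p-values, which were adjusted over the whole set by Benjamini-Hochberg and read against 0.05 (2 residual degrees of freedom, biological coefficient of variation 0.156). Each SE was obtained by dividing the size of the log2 fold change by the square root of F and adds nothing to the test. Levels are TMM-scaled CPM (mean ± SD, n = 2); similarity used log2 CPM with a prior count of 2. Intervals are exact binomial (95%). Intervals and floors cover counting error only, and floors take the counts of the other group as exact.

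The receptors, the gene lists and the rule for naming genes were chosen with earlier results of these data known. The rule took all 9 receptors, up to 4 called genes of each other list with a mean of at least 1 CPM (or the 2 most abundant tested where none was called), and the 2 nearest profiles of each tested receptor among genes of at least 5 CPM. Gnai2 was named outside it, after its values were seen. The files held every listed gene but Trdc, and values of some listed genes are not reported here. Other settings tried were scaling by RLE or by upper quartile, DESeq2 1.42.0, limma-voom (limma 3.58.1), all genes unfiltered, genes reaching 5 CPM in 2 libraries, fits without the robust option, a replicate block and each library left out. The fits were tested on simulated counts. Python 3.11.15 (numpy 2.4.6, pandas 2.3.3, scipy 1.17.1, matplotlib 3.10.9) made the tables and figures.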

Additional observations from a re-analysis of the deposited data

How the results depend on the processing

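With n = 2 per group and Tfh T53 at 5725358 counts, small differences of receptors with few counts, Cx3cr1 and most of the other receptors, were not detectable at this depth. Cxcr5, Cxcr4, Cxcr6, Ccr2 and Ccr7 kept their direction and their call under all 12 alternatives, with log2 fold changes of 3.71 to 3.80, 2.32 to 2.73, -2.64 to -2.04, -6.52 to -5.77 and -3.54 to -3.29. With limma-voom, 3 receptors were called lower, as Ccr4 (-1.07, adjusted p = 0.0632) and Ccr6 (-2.10, 0.0745) lost their calls. With a library left out, 3 to 5 receptors were called lower and 2 higher, Ccr4 ran from -1.37 to -0.75, Ccr6 from -2.59 to -1.43 and Cxcr3 from -2.14 to -0.42, and 298 to 454 genes were called higher and 247 to 435 lower. Of these, the call of Ccr4 was lost without either Tfh library or without non-Tfh T32, that of Ccr6 without either Tfh library, and Cxcr3 was called without Tfh T32. Without a filter on low counts 1006 genes were called higher and 980 lower, against 523 and 471. The causes were not tested. Library numbers T32 and T53 are shared by the groups, and no label says that they pair the samples; deviations of same-numbered libraries from their group means correlated at 0.368 over genes. With a replicate block, 1069 genes were called higher and 1051 lower, and Cxcr3 was called (-1.10, adjusted p = 0.0347). Ccr8, among the other receptors, was called with the block (-1.83, adjusted p = 0.0184) and without a filter on low counts (-1.92, 0.00364). Ccr1 was also called with the block (adjusted p = 0.0327) and without the filter (0.025). With a library left out, Ccr10 ran from 0.54 to 3.26, Ccr8 from -2.76 to -1.14 and Cxcl10 from 0.48 to 1.33, without a call. No result changed sign.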

Other observations

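Ccr10 and Cntnap1, a neuronal adhesion gene whose span overlaps Ccr10 on the other strand of chromosome 11, varied together from library to library. Ccr10 had 156 and 169 counts in Tfh cells, against 29 and 127 in non-Tfh cells. Cntnap1, named after its values were seen, had 276 and 453 counts in Tfh cells, against 109 and 372 in non-Tfh cells. Within each group T53 held more counts of both genes than its shallower depth would give, and the annotated exons of the pair share 0 bases. No source used here gives the strand used in counting, and its part in these values was not tested.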
